A study of Homo sapiens with 8 samples.

Results

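The genes described here encode the surrogate light chain (IGLL1 and VPREB1), the related protein VPREB3, and the signalling chains CD79A and CD79B of the B-cell receptor. Binding near them was read from chromatin immunoprecipitation with sequencing (ChIP-seq) in 697, a human cell line established from a pre-B leukaemia. Antibodies against IKAROS, AIOLOS, MTA2, Mi2, HDAC2, OCT2 and OCAB gave 1 library each, and 1 input library was sequenced without an antibody. All 8 libraries came from the same line, grown without a treatment that the labels name in medium with 10% fetal bovine serum, so the data describe 1 line and hold no replicate. A peak was taken where a deposited list, on build hg19, overlapped a window around a gene. The windows were chr22:23905000-23933000 for IGLL1, chr22:22590000-22610000 for VPREB1, chr22:24085000-24107000 for VPREB3, chr19:42371000-42396000 for CD79A and chr17:61996000-62020000 for CD79B. They held 70 of the 159806 peaks of the series. These 70 peaks lay in 25 of the 74123 merged regions. A merged region is a stretch in which peaks overlap by at least 1 bp, and a peak that overlaps no other counts as a region by itself.

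At the pre-B stage a newly made immunoglobulin heavy chain is tested by pairing with the surrogate light chain, which IGLL1 (also called lambda 5) and VPREB1 form together. CD79A and CD79B hold the immunoreceptor tyrosine-based activation motifs that carry the signal of the pre-B receptor and later of the B-cell receptor. VPREB3 is a B-lineage protein that associates with immunoglobulin chains inside the cell. IKAROS and AIOLOS are zinc-finger factors of lymphocytes, and in mouse pre-B cells IKAROS is known to bind and repress Igll1. NuRD couples nucleosome remodelling to histone deacetylation; Mi2 is its ATPase, HDAC2 a deacetylase, and MTA2 a scaffold subunit. Octamer sites are bound by OCT2, and the B-cell coactivator OCAB is recruited to them through OCT1 or OCT2. The study's title links MTA2 and NuRD with B-cell development and with OCAB.

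Because octamer factors were among the proteins mapped, the 250 bases before the gene start are shown for the 4 genes with an entry in the RefSeq promoter table (build GRCh38.p14); CD79B had none. Capitals mark the octamer (ATGCAAAT) and the IKAROS core (TGGGAA), searched on both strands. Coordinates of this build are not those of the peaks, so none of these bases was placed on a peak.
VPREB3, chr22:23754426-23754675, minus strand: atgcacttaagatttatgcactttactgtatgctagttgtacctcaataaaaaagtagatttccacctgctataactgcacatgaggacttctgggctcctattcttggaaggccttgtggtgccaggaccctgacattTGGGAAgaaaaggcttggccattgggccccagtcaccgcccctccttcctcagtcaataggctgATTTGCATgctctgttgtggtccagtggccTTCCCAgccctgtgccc
IGLL1, chr22:23580291-23580540, minus strand: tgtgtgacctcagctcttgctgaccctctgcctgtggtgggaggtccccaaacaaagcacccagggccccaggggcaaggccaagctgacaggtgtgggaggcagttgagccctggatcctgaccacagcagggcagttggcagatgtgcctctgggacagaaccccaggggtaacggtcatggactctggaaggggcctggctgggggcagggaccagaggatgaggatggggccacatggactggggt
VPREB1, chr22:22244536-22244785, plus strand: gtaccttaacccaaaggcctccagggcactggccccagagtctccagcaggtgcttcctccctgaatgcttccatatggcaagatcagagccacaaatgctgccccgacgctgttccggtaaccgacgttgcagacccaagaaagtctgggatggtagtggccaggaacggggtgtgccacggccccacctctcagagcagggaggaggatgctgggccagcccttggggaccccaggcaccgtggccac
CD79A, chr19:41877029-41877278, plus strand: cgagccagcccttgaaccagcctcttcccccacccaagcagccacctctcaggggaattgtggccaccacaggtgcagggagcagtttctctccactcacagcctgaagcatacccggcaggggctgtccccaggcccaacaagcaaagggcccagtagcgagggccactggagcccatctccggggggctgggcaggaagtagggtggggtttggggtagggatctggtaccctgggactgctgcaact

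The VPREB3 stretch held the octamer, reading as its complement 47 to 40 bases before the gene start, and 2 matches to the IKAROS core. The other 3 stretches held neither motif. Over the 35116 promoters of the table, 1.63% held the octamer and 20.8% the IKAROS core in the same 250 bases. The longer motif CCCNNGGGA of EBF1, a factor of the early B lineage, was found in none of the 4 stretches and in 7.84% of all promoters. Its short form AGGGA was found in 3 of the 4 (all but VPREB3) and in 58.7% of all promoters. The E-box CANNTG, the motif of E2A, was found in all 4 and in 61.8% of all promoters; 1 of the E-boxes before VPREB3 overlapped an IKAROS core.

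All 5 windows held peaks of at least 6 of the 7 proteins. IKAROS, AIOLOS, MTA2, HDAC2 and OCT2 had a peak in every window, OCAB in 4 (all but CD79A), and Mi2 in 3 (IGLL1, VPREB1 and CD79A). The IGLL1 and VPREB1 windows held all 7 proteins. Of the 117776 bins of 25 kb along the chromosomes, about the width of these windows, 3.00% held 6 or more proteins. A bin held IKAROS in 29.2% of cases, AIOLOS in 21.5%, MTA2 in 17.9%, HDAC2 in 11.3%, Mi2 in 7.89%, OCT2 in 6.14% and OCAB in 3.53%.

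The proteins were stacked at a few places. Of the 25 merged regions, 6 (24%) held at least 5 proteins, against 7.85% of all merged regions, and 5 (20%) held 6 proteins, against 2.96% of all regions with 6 or more. In each of these 5 regions the set was the same: every protein except Mi2. That set was found in 644 regions of the series, 0.869% of all. It occurred once in the IGLL1, VPREB1 and VPREB3 windows and at a pair of places in the CD79B window. Some of these peaks stood low over input. OCAB was 5.75-fold at VPREB3, and HDAC2 was 4.99-fold at chr17:62009431-62009914 in the CD79B window. At chr17:62003005-62003340 OCAB was 4.0-fold, OCT2 4.22-fold and HDAC2 5.35-fold. At a minimum of 8-fold over input only the IGLL1 and VPREB1 regions kept all 6 proteins. No region of the windows held all 7 proteins, and 11 of the 25 held 1 protein alone, close to the share in the series (44.0%, against 44.7% of all regions).

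OCT2 was found in 9 of the 25 regions (36.0%, 95% Wilson interval 20.2 to 55.5) and in 11.0% of all merged regions. OCAB was found in 7 (28.0%, 14.3 to 47.6), against 5.99% of all regions. For the other proteins the interval of the share in the windows took in the share in the series. IKAROS lay in 60% of the 25 regions (40.7 to 76.6), against 72.8% of all, AIOLOS in 52.0%, against 51.4%, and MTA2 in 52.0% (33.5 to 70.0), against 38.8%. HDAC2 lay in 32.0% (17.2 to 51.6), against 21.8%, and Mi2 in 20% (8.86 to 39.1), against 13.9%. Regions of 1 window share libraries and neighbourhood, so these intervals cover counting alone and are no test of a difference from the series. The counts took in peaks low over input, for OCT2 of 4.22-fold, 5.1-fold and 7.73-fold and for OCAB of 4.0-fold and 5.75-fold.

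**Figure D1:**
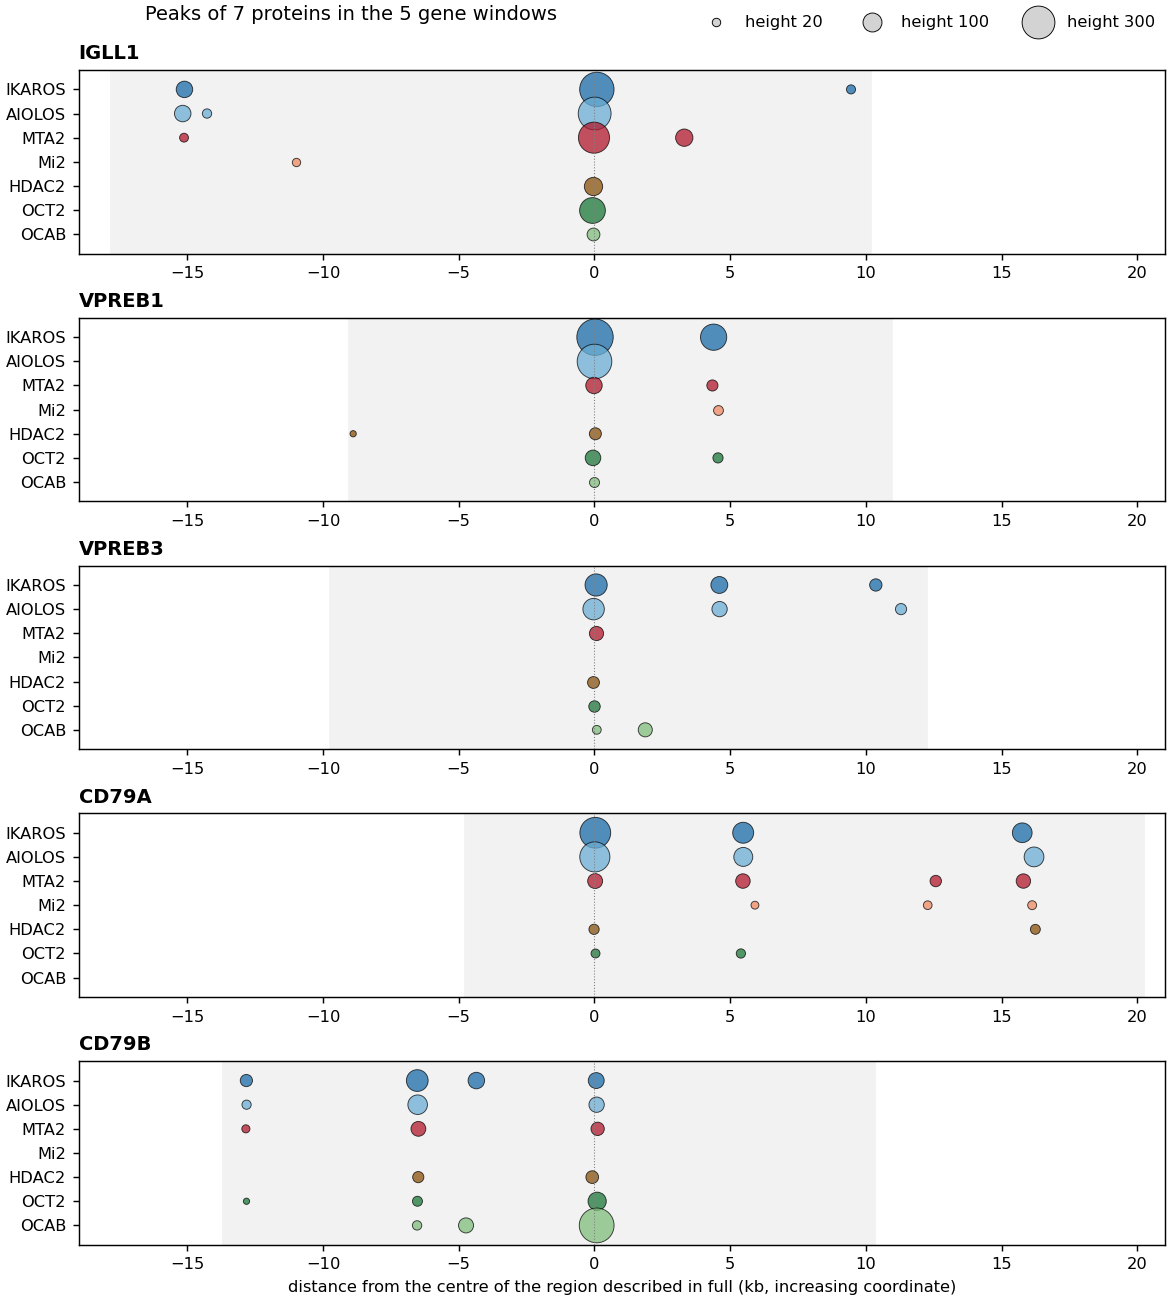
Peaks of 7 proteins in the windows of 5 genes. The horizontal axis gives the distance in kb from the centre of the region described in full for each gene, the grey band is the window, and the area of each circle is proportional to peak height (tags per 10 M). In IGLL1, VPREB1 and VPREB3, 6 proteins fall on 1 position, and the OCAB circle of CD79B, with a height of 337.3, exceeds all other circles of that window.

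Peak height is the deposited tag count scaled to a library of 10 M tags, and each height is set against its own list. Of the 70 peaks, 32 were among the highest 5% of their list, where 4.89% of all peaks of the series stood. MTA2 had 9 of its 13 peaks there, IKAROS 8 of 15, AIOLOS 6 of 13, HDAC2 5 of 8, OCT2 3 of 9, OCAB 1 of 7 and Mi2 none of 5. By gene these were 8 of 17 peaks for CD79A, 8 of 18 for CD79B, 6 of 13 for IGLL1, 6 of 11 for VPREB1 and 4 of 11 for VPREB3. Ranked by fold over input, 12 of the 70 peaks were among the highest 5%, with a share of 4.96% over all peaks. By gene these were 1 of 18 peaks for CD79B, 2 of 17 for CD79A, 4 of 13 for IGLL1, 5 of 11 for VPREB1 and none of 11 for VPREB3. HOMER's score placed 33 of the 70 there. In the regions described in full, 1 for each gene, 21 of 29 peaks were among the highest 5% by height and 11 by fold over input. Each of these regions was chosen for holding the most proteins in its window, and no share was computed for other regions with as many proteins. At CD79B the region was chosen on a tie by its rank of height, so the count by height is not independent of the choice. Library depth ran between 10.9 M tags for HDAC2 and 23.4 M for IKAROS, and the intervals below are exact 95% Poisson intervals of the tags, which cover counting error only.

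IGLL1, which encodes the constant-like part of the surrogate light chain, had by height the highest peaks of MTA2, HDAC2 and OCT2 among the 5 windows. They lay in the region chr22:23922592-23923039 together with IKAROS, AIOLOS and OCAB. MTA2 height was 269.7 (248.9 to 291.8) at IGLL1, rank 34 of 28760 MTA2 peaks. OCT2 height was 184.9 (165.7 to 205.7), rank 11 of 8129, and HDAC2 height was 93.4 (76.2 to 113), rank 22 of 16125. Counted with the peak itself, 0.118% of the MTA2 list, 0.148% of the OCT2 list and 0.136% of the HDAC2 list was as high or higher.

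In the same IGLL1 region IKAROS reached 329.3 (306.4 to 353.4) and AIOLOS 300.7 (274.6 to 328.7), with 0.386% and 0.475% of their lists as high or higher. OCAB height was 45.6 (36.2 to 56.7), in the highest 9.91% of its list. Fold over input was 115 for MTA2, 117 for IKAROS, 91.8 for AIOLOS, 65.5 for OCT2, 20.8 for HDAC2 and 19.6 for OCAB. By this fold the same peaks stood in the highest 0.591% of the list for MTA2, 1.75% for OCT2, 2.265% for IKAROS, 4.04% for AIOLOS, 9.23% for HDAC2 and 29.8% for OCAB. The centres spread over 174 bp, with OCT2 at the lower coordinate, then HDAC2, OCAB, MTA2 and AIOLOS, and IKAROS at the higher one. OCT2 and IKAROS centres lay 174 bp apart here, against a median of 52 bp over the 6414 regions with that pair.

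An MTA2 peak without any other protein lay 2.96 kb beyond this IGLL1 region, at chr22:23925998-23926248. Its height of 83.6 (72.2 to 96.3) was the second highest of the 13 MTA2 peaks and stood at rank 296 of the list (the highest 1.06%), or in the highest 12.2% by fold over input. At the other end of the IGLL1 window IKAROS (75.7), AIOLOS (75.9) and MTA2 (21.9) shared a region at chr22:23907520-23907848. The remaining IGLL1 regions held AIOLOS alone (24.3), Mi2 alone (19.5) and IKAROS alone (23.1). The Mi2 peak centre lay 3295 bp from the nearest other peak centre, so Mi2 was not found with its NuRD partners in this window.

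VPREB1, the variable-like part of the surrogate light chain, had the highest IKAROS and AIOLOS peaks of the 5 windows, in the region chr22:22598849-22599232. IKAROS height was 369.5 (345.3 to 395.0) at VPREB1, rank 148 of 53948, and AIOLOS height was 334.3 (306.6 to 363.8), rank 132 of 38101. The intervals of VPREB1 and IGLL1 overlapped for AIOLOS (537 and 486 tags) and for IKAROS (864 and 770 tags). Overlap of intervals is not a test of a difference, and the order of these genes was not tested. Fold over input was 262 for IKAROS and 237 for AIOLOS, the highest of all 70 peaks. By fold these stood in the highest 0.406% and 0.533% of their lists.

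OCT2 reached 67.6 (56.2 to 80.6) in the VPREB1 region, rank 98 of its list, and MTA2 75.3 (64.5 to 87.4), rank 395. The MTA2 interval lay below that of IGLL1, and so did the OCT2 interval. By fold over input the OCT2 peak of VPREB1 (71.9-fold) stood above that of IGLL1 (65.5-fold), in the highest 1.45% of its list. HDAC2 height was 40.3 (29.3 to 54.1), in the highest 1.72% of the list by height and 5.87% by fold, and OCAB height was 27.9 (20.6 to 36.9). The 6 centres lay within 87 bp, again with OCT2 at the lower coordinate.

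A further VPREB1 region, 4.03 kb away at chr22:22603259-22603763, held IKAROS, MTA2, Mi2 and OCT2 and no AIOLOS. This set was found in 20 regions of the series, 0.0270% of all. IKAROS height there was 192.0 (174.6 to 210.6), in the highest 1.37% of its list (4.53% by fold over input), and no AIOLOS peak was listed beside it. Mi2 height was 27.0 (20.2 to 35.4), the highest of the 5 Mi2 peaks of the windows, and OCT2 height was 28.9, with both centres on the same base. The last VPREB1 peak was HDAC2 alone with a height of 11.0 at the edge of the window. It was the 1 peak of the 70 with a p-value over input above 1e-10.

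VPREB3 had lower peaks than IGLL1 and VPREB1 for each of the 6 proteins in its shared region, chr22:24094521-24094957, although the intervals overlapped for HDAC2 with VPREB1, MTA2 with VPREB1 and OCAB with VPREB1. IKAROS height was 136.9 (122.3 to 152.8) and AIOLOS height 128.2 (111.3 to 146.9), with 2.97% and 3.09% of their lists as high or higher. MTA2 reached 56.5 (47.2 to 67.1), HDAC2 39.4 (28.5 to 53.1), OCT2 36.6 (28.4 to 46.5) and OCAB 21.7 (15.4 to 29.8). By fold over input the VPREB3 peaks stood lower in their lists, with IKAROS in the highest 14.1%, AIOLOS 17.7%, MTA2 23%, HDAC2 39.2%, OCT2 51.8% and OCAB 94.6%. OCAB had a second and higher VPREB3 peak by itself at chr22:24096477-24096743, 1.52 kb away, with a height of 55.3 (44.8 to 67.5) and 39.2-fold over input. No OCT2 peak was listed there; OCAB without any other protein was found in 1209 regions, 1.63% of all. IKAROS and AIOLOS had further VPREB3 peaks, with heights of 79.5 and 65.4 in a shared region and of 42.3 and 34.9 apart.

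CD79A was the 1 window without OCAB and the window with the most Mi2 peaks. Its shared region, chr19:42375593-42375943, held IKAROS at 264.3 (243.9 to 286.0), AIOLOS at 252.7 (228.7 to 278.5), MTA2 at 62.2 (52.4 to 73.3), HDAC2 at 29.3 (20.04 to 41.36) and OCT2 at 22.4 (16.1 to 30.4). IKAROS and AIOLOS stood in the highest 0.634% and 0.711% of their lists, while OCT2 stood in the highest 21.2%. By fold over input IKAROS stood in the highest 1.59%, AIOLOS 1.03%, MTA2 9.66%, OCT2 27.8% and HDAC2 33.95%. The ratio of OCT2 to IKAROS height was 0.0848 (0.0602 to 0.116) at CD79A, where 95.7% of the 6414 regions with this pair had as high a ratio or a higher one. The 5 centres lay within 54 bp.

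The CD79A window had IKAROS peaks at 2 other places, with heights of 122.3 at chr19:42381024-42381381 and 108.2 at chr19:42391389-42391692. MTA2 was present at both, at 58.7 (49.2 to 69.5) and 57.8 (48.4 to 68.5), with intervals that overlapped that of its 62.2 in the shared region. A further MTA2 peak, with Mi2 at chr19:42387870-42388464, had a height of 36.3 (28.9 to 45.0), below the intervals of the other 3. AIOLOS height was 100.2 (85.3 to 116.9) beside the IKAROS peak of 122.3. OCT2 was present beside the IKAROS peak of 122.3 alone of these places, at 24.0. By fold over input this OCT2 peak (5.1-fold) stood in the highest 95.4% of its list. Beside it IKAROS stood in the highest 27.7%, AIOLOS 38.5% and MTA2 40.7%. The 3 Mi2 peaks, with heights of 17.3, 21.1 and 22.2, lay 443 bp, 296 bp and 323 bp from the nearest MTA2 centre. In the same order their folds over input were 4.08, 22.4 and 9.41, in the highest 99.8%, 12.5% and 48.4% of the Mi2 list. At chr19:42391717-42392167 the Mi2 peak of 22.2 stood with AIOLOS at 108.9 (93.4 to 126.3) and HDAC2 at 27.5 (18.55 to 39.3). This set with no other protein was found in 18 regions of the series, and the one here lay 25 bp from the region of IKAROS and MTA2.

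CD79B had the highest OCAB peak of the 5 windows and the second highest of the whole OCAB list. It lay in the region chr17:62009431-62009914, with a height of 337.3 (310.7 to 365.6) and 59.7-fold over input. OCT2 height there was 92.7 (79.3 to 107.7), rank 45 of 8129, and the OCT2 and OCAB centres lay 18 bp apart. By fold over input the OCAB peak stood in the highest 4.35% of its list, against 0.0451% by height, and the OCT2 peak, 16.4-fold over an input of 5.67, in the highest 25.01%, against 0.566% by height. IKAROS height was 70.6 (60.2 to 82.2) and AIOLOS height 65.4 (53.5 to 79.2), the lowest of the 5 regions described in full, with 10.5% and 11.8% of their lists as high or higher. MTA2 reached 49.5 (40.8 to 59.5) and HDAC2 44.9 (33.2 to 59.4). These 4 proteins stood between the highest 66.8% (IKAROS) and 85.04% (HDAC2) of their lists by fold. The HDAC2 centre lay at the lower coordinate, 199 bp from the MTA2 centre, against a median of 62 bp over the 10665 regions with that pair.

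A further CD79B region with the same 6 proteins lay at chr17:62003005-62003340. By fold over input OCAB (4.0-fold) was at the very bottom of its list, and OCT2 (4.22-fold) stood in the highest 99.5%. HDAC2 (5.35-fold) stood in the highest 77.9%, AIOLOS 44.1%, MTA2 37.5% and IKAROS 29.0%. IKAROS (131.7), AIOLOS (106.4) and MTA2 (61.3) were higher there than in the region of the OCAB maximum, with intervals that overlapped for MTA2, and OCT2 (27.8) and OCAB (24.5) were lower. Between them OCAB stood alone at chr17:62004808-62005074 with a height of 63.2 (52.0 to 76.1), and IKAROS alone 111 bp beyond it with 76.1. A region of IKAROS (41.5), AIOLOS (23.7), MTA2 (18.4) and OCT2 (10.9) at the edge of the window completed the 18 peaks of CD79B.

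**Figure D2:**
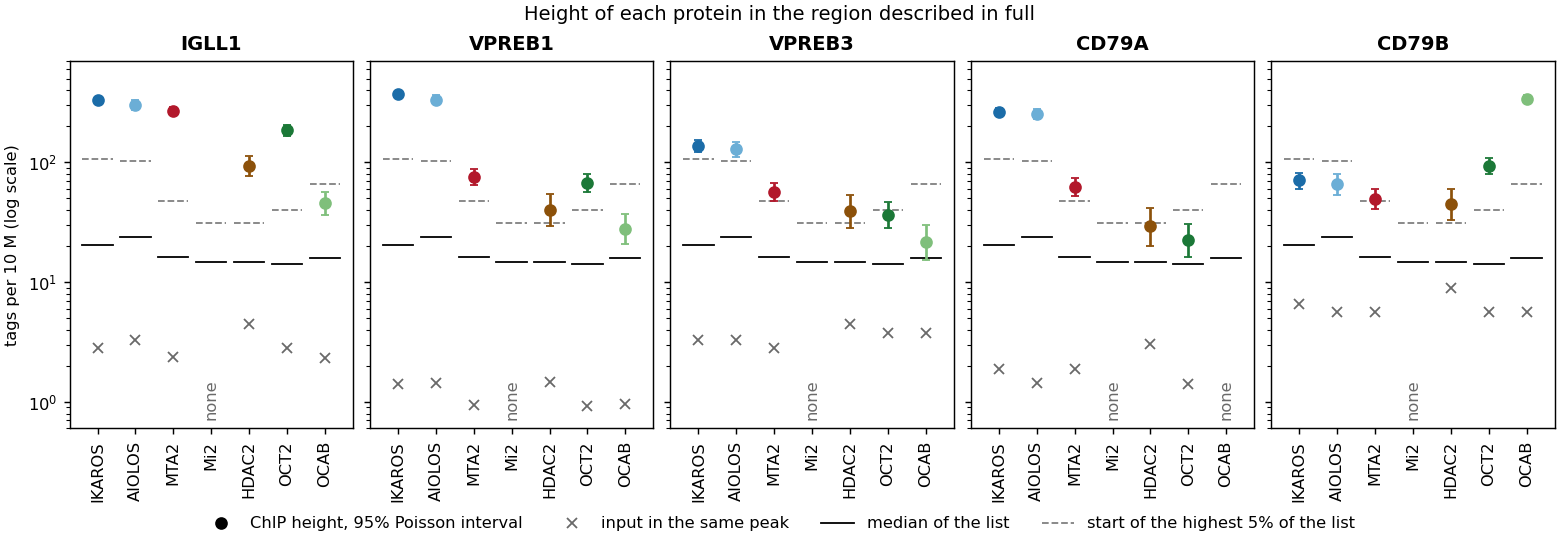
Height of each protein in the region described in full for each gene, in tags per 10 M on a log scale. Circles give the ChIP height with its 95% Poisson interval, crosses the input in the same peak; solid and dashed lines give the median of each list and the start of its highest 5%. IKAROS and AIOLOS lie above the dashed line for IGLL1, VPREB1, VPREB3 and CD79A but not for CD79B, where OCAB stands at 337.3.

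Input was not level over the windows. In the CD79B region of the OCAB maximum the ChIP heights of 44.9 to 337.3 stood on input signals of 5.64 to 8.98 tags per 10 M. Of the inputs in each list, 0.0930% to 0.894% were as high or higher. The other shared CD79B region had inputs of 4.23 to 6.6. The CD79A region at chr19:42381024-42381381 had inputs of 4.23 to 4.73. The VPREB1 region, with ChIP heights of 27.9 to 369.5, had inputs of 0.927 to 1.47, below or close to the list medians of 1.4 to 2.02. For HDAC2 the peaks of VPREB1 and CD79B had similar heights (40.3 and 44.9), while fold over input was 26.9 at VPREB1 and 4.99 at CD79B. These inputs rest on few tags, and the part of input in the heights was not tested.

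The balance of OCAB and OCT2 differed between genes. The ratio of OCAB to OCT2 height was 3.64 (3.06 to 4.34) in the CD79B region of the OCAB maximum, where 7.90% of the 1874 regions with both proteins had as high a ratio. It was 0.247 (0.191 to 0.315) at IGLL1, where 1.07% had as low a ratio, 0.413 (0.290 to 0.579) at VPREB1 and 0.593 (0.387 to 0.896) at VPREB3. The median over all regions with the pair was 1.04. The CD79B interval overlapped none of the other 3. The IGLL1 interval overlapped that of VPREB1 but not that of VPREB3, and VPREB1 and VPREB3 overlapped. In the other shared CD79B region the ratio was 0.881 (0.573 to 1.35), so the high ratio belonged to 1 of the 2 CD79B regions. That ratio of 0.881 rests on peaks low over input, 4.0-fold for OCAB and 4.22-fold for OCT2. Heights of separate libraries are not on 1 scale, so a ratio is read only against the same ratio in other regions.

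MTA2 also varied against its partners. OCAB height was 6.81 times MTA2 height (5.56 to 8.41) in the CD79B region, where 1.00% of 2294 regions with the pair had as high a ratio. At IGLL1 the ratio was 0.169 (0.132 to 0.213), where 1.83% had as low a ratio. MTA2 to IKAROS height was 0.819 (0.736 to 0.912) at IGLL1 and 0.204 (0.172 to 0.240) at VPREB1, on either side of the median of 0.446 over 22139 regions. HDAC2 to MTA2 height was 0.346 (0.278 to 0.428) at IGLL1, with 3.77% of 10665 regions as low. The ratio of IKAROS to AIOLOS stayed between 1.05 (CD79A) and 1.11 (VPREB1) in the 5 regions described in full, within the quartiles of 0.996 and 1.46 over 32931 regions, and the 5 intervals overlapped.

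**Figure D3:**
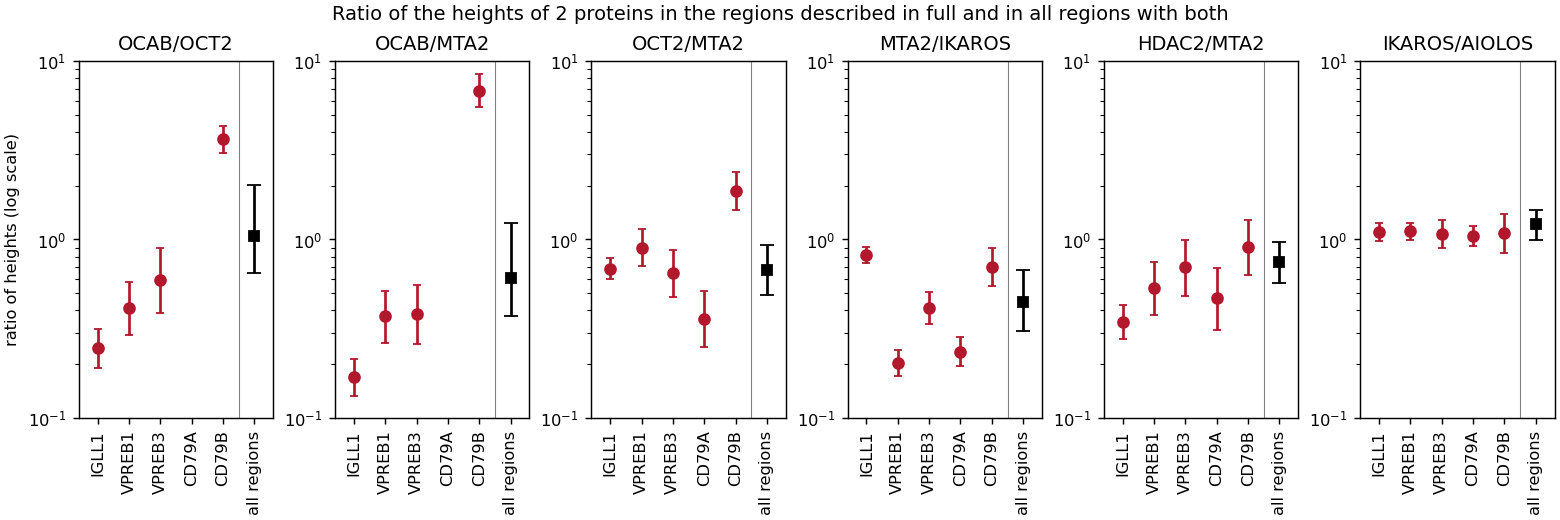
Ratio of the heights of a pair of proteins, on a log scale, in the region described in full for each gene (red circles, 95% interval of the tag counts) and in all regions with both proteins (black squares, median with the quartiles). CD79A has no circle where OCAB is involved. OCAB to OCT2 runs between 0.247 at IGLL1 and 3.64 at CD79B, while IKAROS to AIOLOS keeps within 1.05 and 1.11.

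**Figure D4:**
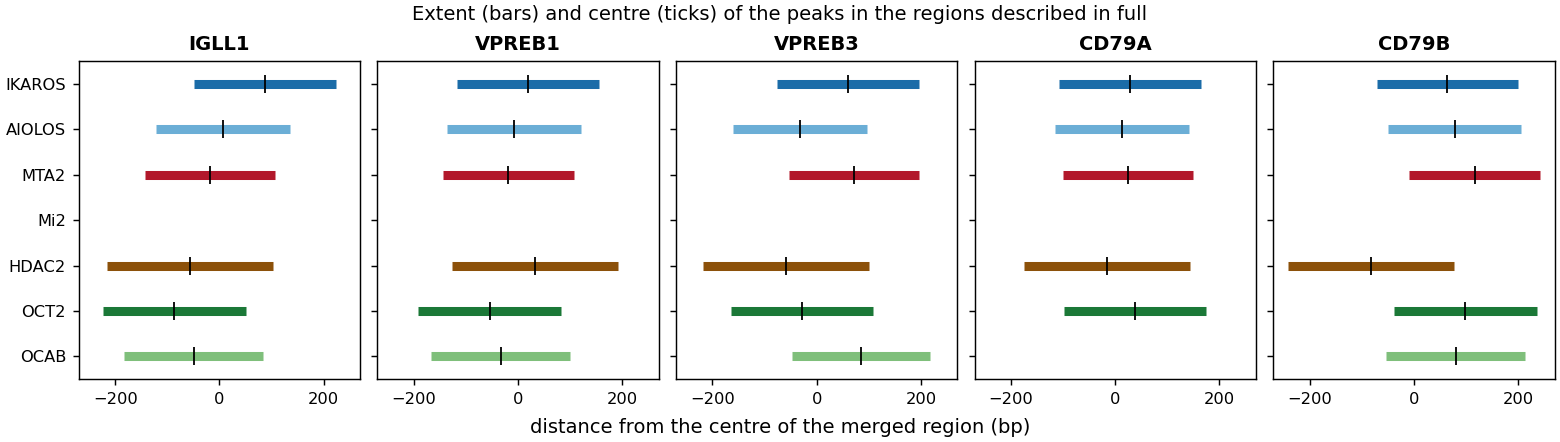
Extent (bars) and centre (ticks) of each peak in the region described in full, in bp from the centre of the region. The centres fall within 54 bp at CD79A and within 87 bp at VPREB1, and spread over 174 bp at IGLL1 and 199 bp at CD79B, where HDAC2 lies apart from the other 5.

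The surroundings of the peaks were also high in signal. The highest level of the 5 windows was at IGLL1 for IKAROS, AIOLOS, MTA2, HDAC2 and OCT2, at VPREB1 for Mi2 and at CD79B for OCAB. The level around a peak was taken as its height over the deposited fold against the surrounding region, in tags per 10 M for a stretch as wide as the peak. In the shared IGLL1 region it was 31.8 for IKAROS, above the median IKAROS peak height of 20.5, and the median level around IKAROS peaks was 1.79. For IKAROS, AIOLOS, HDAC2 and OCT2 at IGLL1 no more than 0.0738% of the list had as high a level, and for MTA2 (16.6) 0.122% had. The MTA2 peak that stood alone at IGLL1 had a level of 20.3 around it, and its fold against the surroundings was 4.11, while its fold over input was 29.6.

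Over the windows, 46 of 70 peaks had a level among the highest 5% of their list, against 7988 of the 159806 peaks of the series. By gene the 46 were 10 of 11 peaks at VPREB1, 10 of 11 at VPREB3, 11 of 17 at CD79A, 8 of 18 at CD79B and 7 of 13 at IGLL1. The level is computed from the height, and many of these peaks were already high, so this count is not independent of the ranks by height. In the VPREB1 region the level around the IKAROS peak was 26.1 and around the AIOLOS peak 19.4, in the highest 0.115% and 0.152%. At CD79A the IKAROS level was 9.86, in the highest 2.14%, and in the CD79B region of the OCAB maximum the OCAB level was 5.42, so OCAB stood 62.2-fold over its surroundings. At the OCAB peak alone in the CD79B window the level was 14.01, the highest of the OCAB list. Neighbouring peaks fall into the surroundings of one another, and input was raised at CD79B, as given above; the part of either in these levels was not tested.

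**Figure D5:**
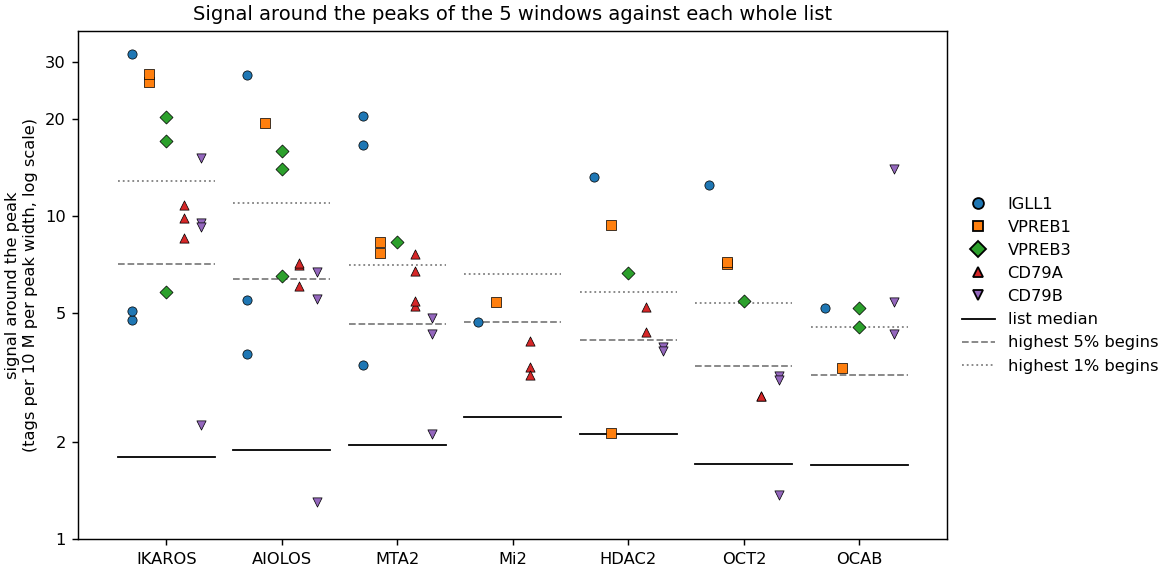
Level of signal around each of the 70 peaks, in tags per 10 M for a stretch as wide as the peak (log scale), by protein and gene. Lines give the median of each whole list and the start of its highest 5% and 1%. The IGLL1, VPREB1 and VPREB3 symbols reach above the highest 1% line for IKAROS, AIOLOS, MTA2, HDAC2 and OCT2, with 31.8 for IKAROS at IGLL1. Symbols above that line also occur for CD79B with IKAROS (15.2) and OCAB (14.01), for CD79A with MTA2 (7.64), and for IGLL1 and VPREB3 with OCAB.

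Judged by the set of proteins alone, the IGLL1 and VPREB1 windows were alike (7 of 7 shared), as were VPREB3 and CD79B (6 of 6). CD79A shared 6 of 7 with IGLL1 and with VPREB1 and 5 of 7 with VPREB3 and with CD79B. By height the order of the genes differed between proteins. Overlap of intervals is given here as a description, and differences between genes were not tested. For IKAROS and AIOLOS the highest peak of each window fell in the order VPREB1, IGLL1, CD79A, VPREB3 and CD79B, where the first pair and the last pair had overlapping intervals, and for AIOLOS also IGLL1 and CD79A. MTA2 was highest at IGLL1, and its highest peaks in the other 4 windows, between 56.5 and 75.3, had intervals that overlapped from 1 to the next. OCT2 fell in the order IGLL1, CD79B, VPREB1, VPREB3 and CD79A, where CD79B overlapped VPREB1 narrowly and VPREB3 overlapped CD79A. OCAB fell in the order CD79B, VPREB3, IGLL1 and VPREB1, of which VPREB3 with IGLL1 overlapped, and IGLL1 with VPREB1 by less than 1 tag per 10 M. HDAC2 was highest at IGLL1, and the other 4 windows overlapped. By fold over input OCT2 was 71.9 at VPREB1, 65.5 at IGLL1 and 16.4 at CD79B, and HDAC2 was 26.9 at VPREB1 and 20.8 at IGLL1. At CD79A AIOLOS was 179-fold and IKAROS 140-fold, above 91.8 and 117 at IGLL1. The highest gene stayed the same by fold for IKAROS and AIOLOS (VPREB1), MTA2 (IGLL1) and OCAB (CD79B).

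The windows also take in stretches near other genes, since no gene annotation of build hg19 was used. On GRCh38 the nearest genes classed as protein-coding on both sides were TOP3B and ZNF280B for VPREB1, ZNF70 and C22orf15 for VPREB3, RPS19 and ARHGEF1 for CD79A, and GH1 and SCN4A for CD79B. DRICH1 lay on the higher side of IGLL1. Genes and gene segments of other classes were not considered. IGLL1 has close relatives in the immunoglobulin lambda locus, and how reads that align to several places were treated is not given in the sources used here. A peak does not measure expression, and a protein without a listed peak may lie below the limit of its list, whose lowest heights ran between 5.13 for IKAROS and 8.25 for HDAC2. The HDAC2 list also required 4-fold against 10000 bp of surroundings, and the lowest fold against surroundings among the 70 peaks was 4.01. Where the level around was high, as at IGLL1 and VPREB1, such a limit would lie well above these lowest heights. Whether proteins missing there were left out for that reason was not tested.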

How the data were processed

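ChIP-seq peak lists of 7 antibodies in 697 cells were used, 1 library each; the input library enters through the lists' input columns. Per the labels' protocols, libraries went through 15 cycles of PCR and a size selection near 250 bp, and no molecular identifiers are mentioned. HOMER 4.9.1, Bowtie2 2.3.2.2 and CASAVA 1.8.2 (for HDAC2, 1.4) are named with build hg19 per the submitters' processing notes. Per the file headers, the HDAC2 list required 4-fold enrichment against input and against 10000 bp of surroundings; for other lists such settings were not given in the sources used here. Outside HDAC2 the highest p-value over input was 8.92e-10, against 9.5e-05 for HDAC2.

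The deposited height is a signal, tags per 10 M tags of the library. The deposited tag count is whole for 5 lists; for IKAROS and MTA2 it is a scaled number, and dividing by 0.909 and 0.930 gave whole numbers within 0.06 for all 33 and 32 low values. The deposited folds are ratios of tags to input or to surroundings, the deposited p-values are HOMER's Poisson p-values, and the deposited score and focus fraction are HOMER's own. No test between proteins was run, as 1 library each allows none. Other genes of the pre-B receptor pathway were not analysed here, as no hg19 annotation was used. Windows were taken by an overlap of at least 1 bp. In each window the merged region with the most proteins (on a tie, the one ranking highest in any list) was described in full. The windows and lists were chosen with earlier results of these data known, and the level around peaks and the ratios were chosen after values were seen. Merging, window assignment and tag recovery were tested on simulated peaks. Motifs were searched in 250 bases before the start of 35116 RefSeq promoters (GRCh38.p14). Alternatives were another p-value limit, a stricter fold, 2000 peaks per list, peak centres, narrower windows, and, chosen after seeing the data, leaving out HDAC2. Python 3.11.15, numpy 2.4.6, pandas 2.3.3, scipy 1.17.1 and matplotlib 3.10.9 were used.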

Additional observations from a re-analysis of the deposited data

How the results depend on the processing

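Counts over the windows were recomputed under a common p-value limit of 1e-10, a minimum of 8-fold over input, the 2000 highest peaks of each list, peak centres in the window, windows narrowed by 5 kb at both ends, merging by centres within 100 bp, and without the HDAC2 list. The 70 peaks became 47 with 2000 peaks per list and 48 in the narrowed windows, and between 59 and 70 otherwise. The 25 merged regions became 14 with 2000 peaks per list and 15 in the narrowed windows, by construction, and between 23 and 28 otherwise. Regions with at least 5 proteins numbered 5 or 6 throughout, and each window kept between 5 and 7 proteins. The full set of 6 proteins was less stable, and at 8-fold only the shared IGLL1 and VPREB1 regions kept it. At 8-fold the CD79B window lost HDAC2, whose folds there were 4.99 and 5.35. The 32 peaks among the highest 5% of their list became 12 by fold over input and 33 by score, a comparison of counts added after seeing the data. Ranked by fold over input in place of height, 27 of the 29 peaks of the regions described in full stood further from the top of their list, down to 94.6%, and by score 9 did. No paired analysis was possible because each antibody had 1 library. Depth limits the lower peaks: 12 tags lay behind the HDAC2 height of 11.0 (5.68 to 19.2).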
